A study of Mus musculus with 8 samples.

Results

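B cell receptor and B lineage genes were compared in the spleens of Yaa and wild-type males. Yaa is a variant Y chromosome onto which a distal stretch of X, Tlr7 among its genes, has been copied. The list held 31 genes chosen by name: receptor subunits, surface receptors, signalling proteins and transcription factors of B cells. Through the array annotation, 28 of them were represented by 49 probe sets, of 18193 genes named on the array, and Ighd, Cd38 and Lyn were not analysed here. Wild-type samples were 4 C57Bl/6J male spleens. The Yaa samples were 4 B6.SB-Yaa/J male preparations, of which the third pooled 2 spleens. The strain carries the Yaa chromosome in every cell, so no result can be tied to the B cells' own copy. All mice were 8 weeks old, and in both groups the spleens were made into cell suspensions whose red cells had been lysed. The source label of Yaa 2 speaks of males in the plural, whereas the series text names a pool for Yaa 3 alone.

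The B cell receptor is a membrane antibody held together with the signalling pair Cd79a and Cd79b. When antigen binds, kinases of the Src family, Blk and Lyn among them, and then Syk phosphorylate the pair, the adaptor Blnk assembles Btk and Plcg2, and calcium and lipid signals follow. Coreceptors such as Cd22 and Siglecg damp this signal. Ebf1 and Pax5 establish and keep the B cell program, and B cells are among the most numerous cells of the mouse spleen.

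Promoters of the members were searched for the letters of 2 elements known from B cell genes, because transcription factors that bind them are themselves members. Of the 28 measured genes, 24 had a promoter in the RefSeq table for GRCm38.p6, which gives 250 bases before and 50 after a gene's start. The octamer ATGCAAAT, bound by Pou2f2 with its partner Pou2af1, was found on either strand in Blnk and Vpreb3, against 1.97% of all genes in the table. The letters CCCNNGGG, which many Ebf1 sites hold, were found in Cd22, Bank1, Spib and Cd81, against 15.4% of all genes. No member held both, in Spib 2 matches overlapped, and Cd81 had 2 separate matches, of which the window shows 1. A match is a run of letters and not evidence of binding. The windows below run 5′ to 3′ on the gene's strand with the match in capitals, and Cd81 is shown because its values differed from the other 5, as described with the surface receptors.
Vpreb3, chr10:75948195-75948322, plus strand: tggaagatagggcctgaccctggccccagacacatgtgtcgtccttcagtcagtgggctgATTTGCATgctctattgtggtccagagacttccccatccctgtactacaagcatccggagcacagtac
Blnk, chr19:40994284-40994411, minus strand: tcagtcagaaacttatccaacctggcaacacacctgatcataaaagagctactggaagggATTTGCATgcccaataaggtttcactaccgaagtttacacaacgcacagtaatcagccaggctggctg
Cd22, chr7:30879009-30879136, minus strand: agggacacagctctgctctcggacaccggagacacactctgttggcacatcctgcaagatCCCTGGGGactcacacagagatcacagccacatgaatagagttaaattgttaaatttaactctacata
Bank1, chr3:136326020-136326147, minus strand: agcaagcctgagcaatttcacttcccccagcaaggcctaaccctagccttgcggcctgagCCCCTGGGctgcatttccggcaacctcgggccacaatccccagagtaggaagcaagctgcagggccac
Spib, chr7:44532068-44532195, minus strand: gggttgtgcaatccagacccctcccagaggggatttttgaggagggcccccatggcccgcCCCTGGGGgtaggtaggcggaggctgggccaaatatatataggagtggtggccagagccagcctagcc
Cd81, chr7:143052622-143052749, plus strand: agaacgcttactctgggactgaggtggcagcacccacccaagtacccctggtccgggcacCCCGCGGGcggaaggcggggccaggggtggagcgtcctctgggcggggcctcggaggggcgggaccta

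Each gene is given by its probe set with the highest mean signal, as log2(signal + 16) after quantile normalization, a scale on which a signal of 0 reads 4. Levels of different probe sets cannot be set against each other on this array. The Yaa label was borne out by the copied X segment, where 9 of 9 tested genes had a higher mean in Yaa, beside 10725 of all 22518 tested probe sets. Tlr7 read 7.31, 6.96, 7.24 and 6.85 in wild type 1 to 4 and 8.02, 8.51, 7.62 and 7.86 in Yaa 1 to 4, so for Tlr7 the pooled sample lay above every wild-type sample. Among the tested genes of the segment only Prps2 read within the wild-type range in Yaa 3. It read 9.28 there, 8.96 to 9.65 in wild type and 10.15 to 10.52 in the other Yaa samples. Yaa 2 and Yaa 3 stood apart from the rest over all 22518 tested probe sets, with a correlation of 0.81 between them and of 0.971 to 0.987 among the other 6 arrays. Fold changes of the members are therefore given with and without Yaa 3.

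Most members were lowest in the pooled Yaa sample, many of them by far, and their differences in the other Yaa samples were smaller. Yaa 3 had the lowest of the 8 values in 25 of 28 members, and in 26.3% of all tested probe sets. In 17 members it lay more than 2 log2 units below every other sample, which 1.10% of tested probe sets did. The median difference of a member from its wild-type mean was -3.11 in Yaa 3, -0.22 in Yaa 1, -0.16 in Yaa 4 and 0.39 in Yaa 2, in log2 units. In RNA of whole cell suspensions, fewer B cells and less of these RNAs per B cell cannot be told apart.

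**Figure D1:**
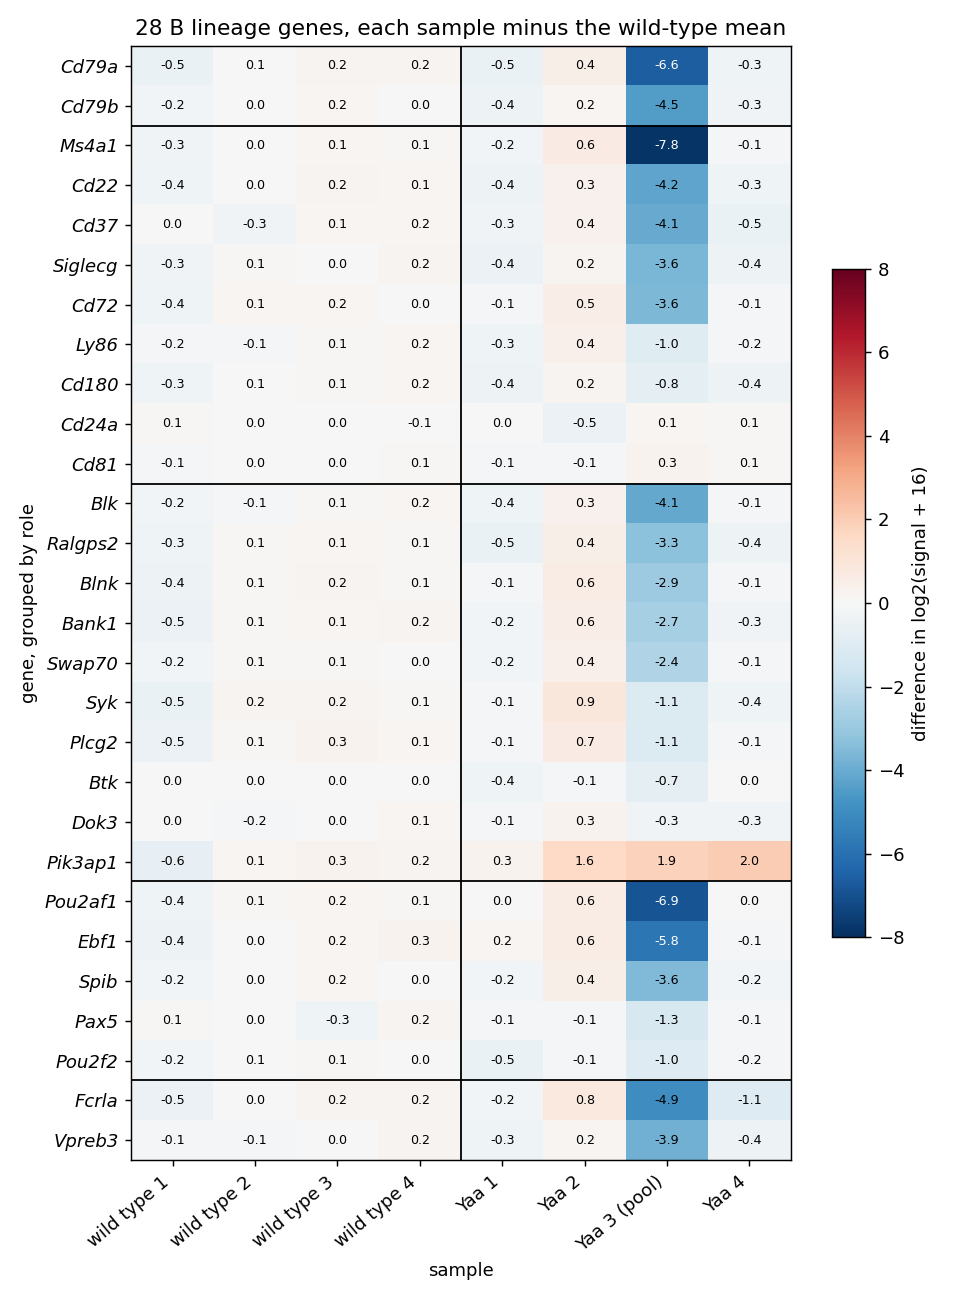
Difference of each sample (columns) from the wild-type mean for the 28 measured genes (rows, grouped by role with lines between groups), in log2(signal + 16), blue for lower and red for higher. The Yaa 3 column is blue for most genes, down to -7.84 for Ms4a1, and Pik3ap1 at the end of the signalling group is red in 3 Yaa samples.

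As a group comparison, 26 of 28 members had a lower mean in Yaa and 2 a higher one, with a median log2 fold change of -0.73, beside -0.01 over all tested probe sets. None of these differences passed limma's test. With Benjamini-Hochberg adjustment over all tested probe sets, 0 of 28 members had an adjusted p under 0.05, where 0.00444% of probe sets did, and the smallest adjusted p of a member was 0.728. At an unadjusted p under 0.05 the fit listed 0 members as lower and 1, Pik3ap1, as higher, where 1.76% and 2.97% of probe sets were. The groups overlapped in all 28 members, and 4.10% of probe sets did not overlap. The median SD of a member was 0.22 in wild type and 1.59 in Yaa (n = 4 each), and 0.38 in Yaa without Yaa 3 (n = 3).

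The receptor's signalling pair was far lower in Yaa 3 than in any other sample. Cd79a, the alpha subunit, read 11.22, 11.78, 11.97 and 11.93 in wild type 1 to 4 and 11.19, 12.17, 5.11 and 11.38 in Yaa 1 to 4. Its deposited signals were 2473 to 4202 in wild type, 2369 to 4797 in the other Yaa samples and 14.8 in Yaa 3. One sample is thus far below all others, while Yaa 1, 2 and 4 straddle the wild-type range. The group means were 11.73 ± 0.35 and 9.96 ± 3.26 (SD, n = 4), so Yaa minus wild type came to -1.77 ± 1.34 in log2 (SE; limma adjusted p = 0.997). Without Yaa 3 it was -0.15 ± 0.26 (SE; limma adjusted p = 0.866). Cd79b, the beta subunit, read 11.12, 11.37, 11.53 and 11.36 in wild type and 10.95, 11.53, 6.86 and 11.06 in Yaa. It showed the same order of samples within Yaa, at -1.25 ± 0.89 (SE) with all samples and -0.17 ± 0.16 (SE) without Yaa 3.

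**Figure D2:**
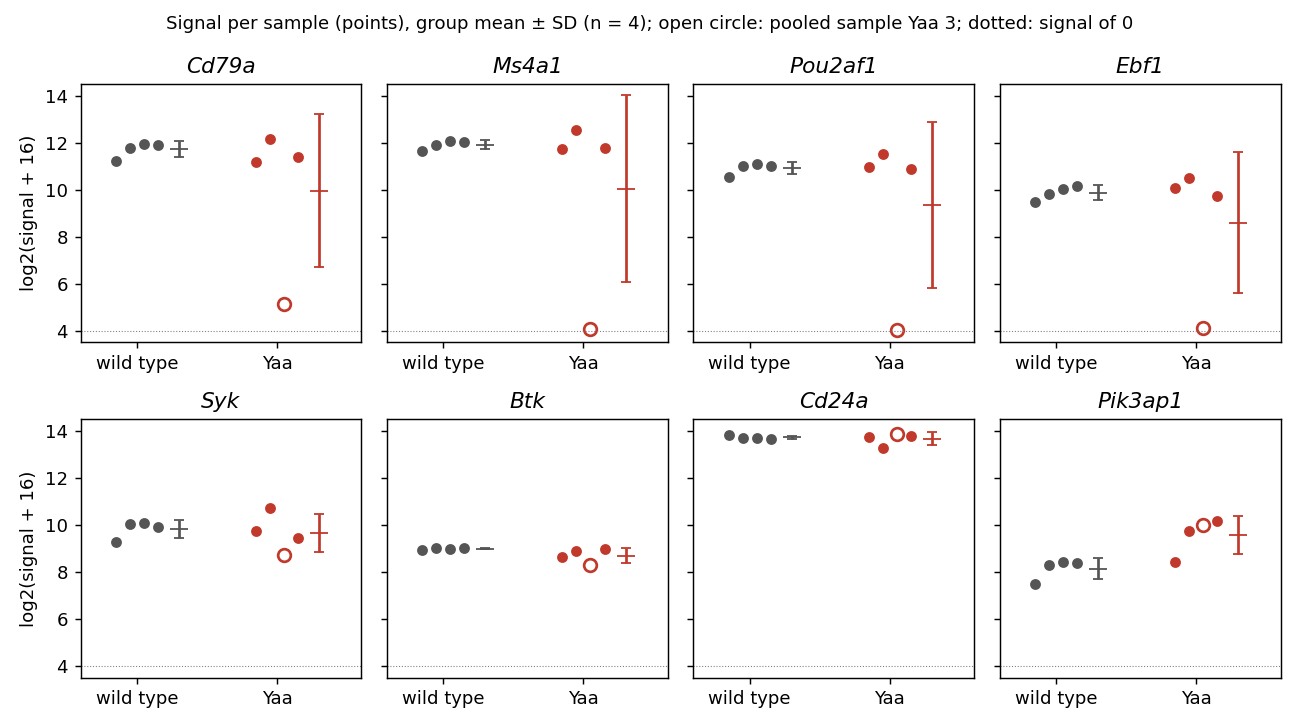
Log2(signal + 16) of 8 genes by group, with 1 point per sample, the group mean ± SD (n = 4) beside the points, the pooled sample Yaa 3 as an open circle and the level of a 0 signal dotted. Cd79a, Ms4a1, Pou2af1 and Ebf1 of Yaa 3 lie near the dotted line, Syk and Btk of Yaa 3 lie slightly below the other samples, and Cd24a and Pik3ap1 of Yaa 3 do not.

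Among surface proteins, Ms4a1 stood at the floor of the scale in Yaa 3. It encodes CD20, a four-pass membrane protein of mature B cells, and read 11.65, 11.92, 12.07 and 12.04 in wild type and 11.72, 12.55, 4.08 and 11.80 in Yaa. The deposited signal was 0.79 in Yaa 3 and 3244 to 6421 in the other Yaa samples. Yaa minus wild type came to -1.89 ± 1.63 (SE; adjusted p = 0.997 by limma) and turned to 0.10 ± 0.20 (SE) without Yaa 3. Since the floor of the scale is reached, the depth of such a drop, and the order of genes that reach the floor, depend on the added constant. Cd22, an inhibitory sialic acid receptor, read 10.84, 11.18, 11.41 and 11.34 in wild type and 10.81, 11.52, 6.95 and 10.87 in Yaa. Its lowest Yaa value again came from Yaa 3, as it did in both its probe sets, at -4.25 and -4.67 from the wild-type mean. Siglecg, a related inhibitory receptor, read 9.72, 10.15, 10.02 and 10.24 in wild type and 9.59, 10.26, 6.39 and 9.62 in Yaa. Cd72, which binds a semaphorin, read 9.93, 10.43, 10.47 and 10.32 in wild type and 10.21, 10.82, 6.72 and 10.20 in Yaa. The tetraspanin Cd37, also present on T cells and myeloid cells, read 11.26, 11.03, 11.45 and 11.48 in wild type and 11.03, 11.67, 7.25 and 10.79 in Yaa. In these 3 the deep drop was that of Yaa 3 alone. Siglecg in Yaa 1 and Yaa 4, and Cd37 in Yaa 4, also lay below every wild-type sample, by far less. The log2 fold changes of Siglecg, Cd72 and Cd37, -1.07, -0.80 and -1.12, became -0.21, 0.12 and -0.14 without Yaa 3. With Yaa 2 left out as well they were -0.43, -0.08 and -0.40. For Cd22 the log2 fold change went from -1.16 to -0.13 without Yaa 3, and was -0.35 without both.

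The remaining surface genes were less reduced in Yaa 3 or not reduced. Cd180, a Toll-like receptor homologue, read 6.89, 7.28, 7.33 and 7.38 in wild type and 6.79, 7.42, 6.42 and 6.79 in Yaa. Its secreted partner Ly86, or MD-1, read 11.02, 11.11, 11.28 and 11.35 in wild type and 10.86, 11.59, 10.23 and 11.04 in Yaa. In both genes Yaa 3 was lowest by less than 1 log2 unit, 0.37 for Cd180 and 0.63 for Ly86. Their log2 fold changes were -0.36 and -0.26, and -0.22 and -0.03 without Yaa 3. Cd24a, a glycosylated anchor protein also abundant on red cell precursors, read 13.83, 13.74, 13.74 and 13.69 in wild type and 13.77, 13.28, 13.88 and 13.82 in Yaa, with the lowest value in Yaa 2. Cd81, a widely expressed tetraspanin, read 10.25, 10.43, 10.36 and 10.51 in wild type and 10.30, 10.29, 10.65 and 10.46 in Yaa, with the highest value in Yaa 3. The differences of Cd24a and Cd81, -0.06 ± 0.13 and 0.04 ± 0.12 (SE), became -0.13 and -0.04 without Yaa 3 and had no stable sign: Cd24a turned positive with median-centred arrays (0.05) and Cd81 negative with them (-0.06) and with the signals as deposited (-0.15). Erythroid genes were also lowest in Yaa 2 in 6 of 6, with a median difference of -1.64, and highest in Yaa 3 in 4 of 6. Their part in the Cd24a values was not tested.

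The signalling proteins differed widely in how low they were in Yaa 3. Blk, a Src family kinase used mainly by B cells, read 9.97, 10.09, 10.28 and 10.33 in wild type and 9.81, 10.51, 6.05 and 10.07 in Yaa. Blnk, the B cell linker, read 10.36, 10.83, 10.97 and 10.88 in wild type and 10.65, 11.34, 7.83 and 10.63 in Yaa. Both were far lower in Yaa 3, as were the scaffold Bank1, the exchange factor Ralgps2 and the Rac-binding protein Swap70, with differences from the wild-type mean of -2.68, -3.29 and -2.40. Among these genes, Swap70 alone was classed as used by other spleen cells too. Over all samples Blk, Blnk, Bank1, Ralgps2 and Swap70 differed by -1.06, -0.65, -0.66, -0.94 and -0.60 in log2, and without Yaa 3 by -0.04, 0.11, 0.01, -0.16 and 0.006. Syk, a kinase of B cells and of phagocytes, read 9.30, 10.06, 10.08 and 9.92 in wild type and 9.77, 10.72, 8.73 and 9.47 in Yaa. The phospholipase Plcg2 read 9.29, 9.84, 10.05 and 9.91 in wild type and 9.71, 10.43, 8.71 and 9.64 in Yaa. Btk, the kinase mutated in X-linked agammaglobulinaemia, read 8.96, 9.03, 8.99 and 9.03 in wild type and 8.63, 8.91, 8.29 and 9.0 in Yaa. These 3 were lowest in Yaa 3 by 0.56, 0.58 and 0.33. The inhibitory adaptor Dok3 read 8.01 in both Yaa 3 and Yaa 4. The log2 fold changes of Syk, Plcg2 and Btk over all samples were -0.17 ± 0.38, -0.15 ± 0.33 and -0.30 ± 0.17 (SE), and without Yaa 3 they were 0.15, 0.15 and -0.16. Of the 4 Syk probe sets, 3 turned positive without Yaa 3. The other differed by -0.60 ± 0.24 (SE; limma unadjusted p = 0.033, adjusted p = 0.997), or -0.40 without Yaa 3, so the sign for Syk then depends on the probe set. Dok3 differed by -0.11, or -0.05 without Yaa 3.

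Pik3ap1, or BCAP, the adaptor that links the receptor and Toll-like receptors to phosphoinositide 3-kinase, was the exception. Its brighter probe set read 7.51, 8.29, 8.41 and 8.40 in wild type and 8.41, 9.77, 10.01 and 10.16 in Yaa. Yaa 2, 3 and 4 lay above every wild-type sample, and Yaa 1 at the top of their range. The log2 fold change was 1.43 ± 0.39 (SE; limma unadjusted p = 0.0048, adjusted p = 0.728), and without Yaa 3 it was 1.29 ± 0.40 (SE; limma adjusted p = 0.570). The second Pik3ap1 probe set read 7.08, 7.83, 8.26 and 7.91 in wild type and 8.33, 9.52, 6.80 and 8.07 in Yaa, with a difference of 0.41 ± 0.51 (SE). Without Yaa 3 this became 0.87 ± 0.38 (SE; limma unadjusted p = 0.046, adjusted p = 0.713), so the probe sets had the same sign and differed most in the pooled sample. In Yaa 3 the first probe set thus differed from its wild-type mean by 1.85 and the second by -0.97. Which of them tracks the gene was not tested.

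Transcription factors of the lineage were also low in Yaa 3. Pou2af1, the B cell coactivator OBF-1, read 10.56, 11.02, 11.11 and 11.01 in wild type and 10.97, 11.52, 4.03 and 10.88 in Yaa. Ebf1, an early factor of B cell commitment, read 9.46, 9.83, 10.04 and 10.18 in wild type and 10.06, 10.49, 4.11 and 9.74 in Yaa. Both stood at the floor of the scale in Yaa 3 and within or above the wild-type range in Yaa 1, 2 and 4. Their log2 fold changes were -1.57 ± 1.46 and -1.28 ± 1.24 (SE), and 0.20 ± 0.19 and 0.22 ± 0.22 (SE) without Yaa 3. For Ebf1 a further tested probe set differed by -0.28 without Yaa 3, so the sign there depends on the probe set. Spib, an Ets factor of B cells and plasmacytoid dendritic cells, read 6.56 in Yaa 3 and 9.89 to 10.56 in the other 7 samples, a log2 fold change of -0.88 that became 0.01 without Yaa 3.

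Pax5, the keeper of B cell identity, was measured dimly. Its brighter probe set read 6.69, 6.52, 6.25 and 6.81 in wild type and 6.47, 6.43, 5.28 and 6.48 in Yaa, so Yaa 3 was again lowest. With wild-type values this near the floor of 4, a drop as deep as that of Ms4a1 could not have been read. Its log2 fold change was -0.40, and -0.11 without Yaa 3. Pou2f2, or Oct-2, read 6.52, 6.78, 6.85 and 6.75 in wild type and 6.22, 6.58, 5.71 and 6.56 in Yaa, on a probe set whose name marks probes shared with other transcripts. A second Pou2f2 probe set had a difference of -0.72 ± 0.24 (SE; limma unadjusted p = 0.017, adjusted p = 0.960), or -0.56 without Yaa 3. The third had 0.15 ± 0.18 (SE), or 0.23 without Yaa 3, and the probe set with the highest signal had -0.46 ± 0.21 (SE), or -0.27 without Yaa 3. The sign for Pou2f2 therefore differs between its probe sets.

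Fcrla, an Fc receptor-like protein kept inside B cells, read 9.65, 10.15, 10.32 and 10.32 in wild type and 9.91, 10.86, 5.17 and 9.05 in Yaa. Here Yaa 4 was also below every wild-type sample, but in another Fcrla probe set Yaa 4, at 9.50, lay inside the wild-type range of 8.99 to 9.72. The first of these probe sets differed by -1.37, or -0.17 without Yaa 3. Vpreb3, a relative of the surrogate light chain, read 7.96, 8.00, 8.13 and 8.29 in wild type and 7.77, 8.26, 4.24 and 7.67 in Yaa, a log2 fold change of -1.11, or -0.20 without Yaa 3. Its promoter and that of Blnk hold the octamer shown above, and both genes were low in Yaa 3, as were most members without it.

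A split of the members by textbook expression, into genes used mainly by B cells and genes that other spleen cells also use, went with the depth of the drop. The split was made with these values known and carries no test. In the 16 measured genes of the first kind, the difference of Yaa 3 from the wild-type mean ran from -7.84 to -1.28, with a median of -3.99, and Yaa 3 was the lowest sample in 16 of 16. In the 12 of the second kind it ran from -4.05 (Cd37) to 1.85 (Pik3ap1), with a median of -0.88. Only Cd37 and Swap70 of the second kind lay more than 2 log2 units under all other samples, against 15 of 16 of the first, where Pax5 was the exception. The summed signal of the first kind was 19928 to 28640 in wild type, 21263 to 35540 in Yaa 1, 2 and 4 and 1149 in Yaa 3. For the second kind it was 23425 to 24643, 22663 to 24000 and 20618. Without Cd24a, the other 11 genes of that kind summed to 8847 to 11098 in wild type, 8737 to 13696 in Yaa 1, 2 and 4 and 5548 in Yaa 3. Yaa 3 was the lowest sample in 9 of the 12. In Yaa 3, 7 members were dimmer than 5.38, the level that a probe set's mean had to exceed to be tested, and in no other sample was any.

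Without Yaa 3, little difference was left between the groups. Of the 28 members, 17 then had a lower and 11 a higher mean in Yaa, with a median log2 fold change of -0.05, beside 50.4% lower and a median of -0.002 over all tested probe sets. Apart from Pik3ap1, the fold changes ran from -0.27 (Pou2f2) to 0.22 (Ebf1). limma called 0 of 28, where 0.00444% of probe sets were called, and listed 1 member, Pik3ap1, at an unadjusted p under 0.05, where 6.93% of probe sets were listed.

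**Figure D3:**
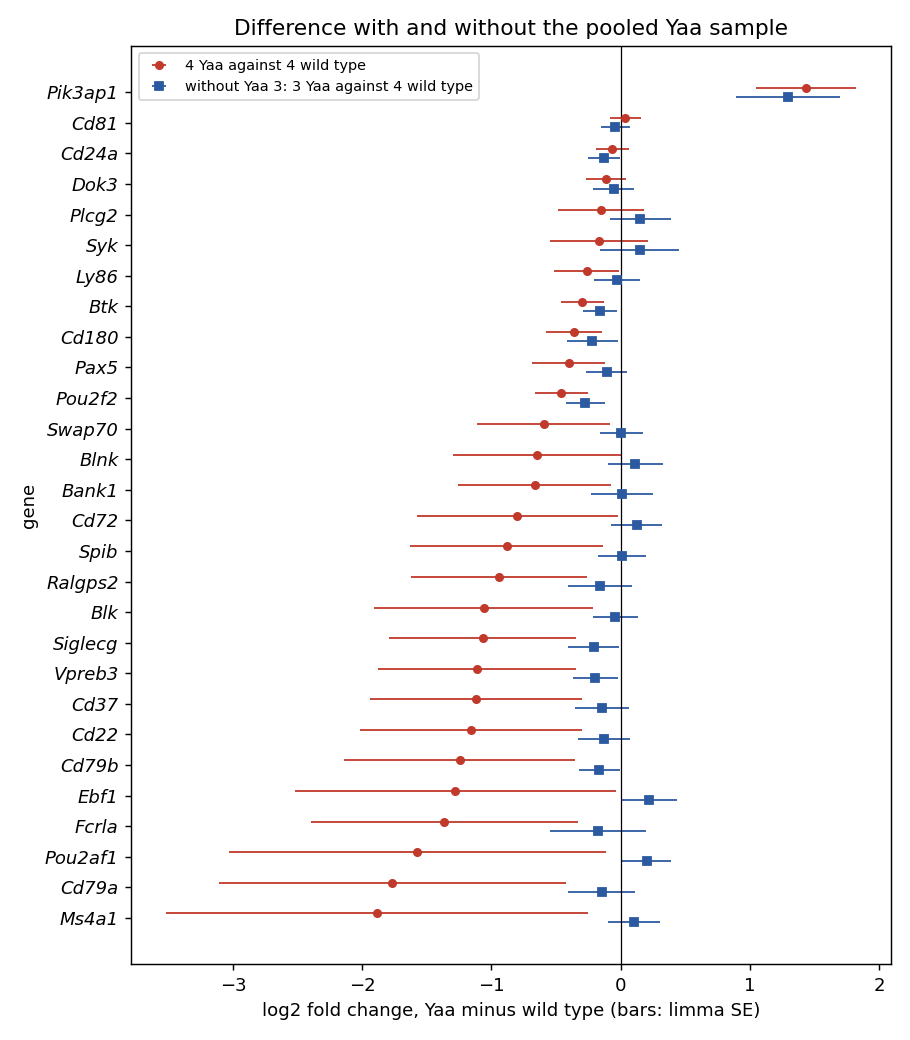
Log2 fold change of Yaa minus wild type for each member (rows), with all 8 samples (red circles) and without the pooled sample Yaa 3 (blue squares), and bars for limma's standard error. The red points reach -1.89 for Ms4a1 with wide bars, the blue ones other than Pik3ap1 lie between -0.27 and 0.22.

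The samples left after removing Yaa 3 were not alike. Yaa 1 was below the wild-type mean in 24 of 28 members and Yaa 4 in 25, mostly by small amounts. Yaa 2 was above it in 23. Both Yaa 1 and Yaa 4 lay below every wild-type sample in Cd79b, Siglecg, Cd180, Ralgps2 and Vpreb3. How often probe sets did so over the whole array was not computed. Over all tested probe sets the median difference from the wild-type mean was -0.009 in Yaa 1, 0.002 in Yaa 4 and 0.05 in Yaa 2. The shares of probe sets below or above that mean were not computed. Yaa 2 had the highest value of all 8 samples in 20 of 28 members, against 30.5% of tested probe sets. Leaving out Yaa 2 and Yaa 3 together, 24 of 28 members were lower, against 51.5% of all tested probe sets, with a median of -0.21. In that fit of 2 Yaa against 4 wild-type samples, 9 members were lower at an unadjusted p under 0.05, where 4.94% of probe sets were, among them Cd79b (-0.34), Ralgps2 (-0.46), Siglecg (-0.43) and Cd37 (-0.40). None had an adjusted p under 0.05 (smallest 0.355), where 0.457% of probe sets did. When limma weighted the arrays by their scatter, Yaa 2 and Yaa 3 both received 0.22, and 5 members were lower at an unadjusted p under 0.05, where 6.05% of probe sets were, and 0 passed after adjustment (smallest adjusted p 0.212), where 0.635% did. Within wild type, sample 1 was the lowest of the 4 in 24 of 28 members, against 32.7% of tested probe sets.

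Other genes of the pathway, from a separate list, showed the low Yaa 3 values too, in 26 of the 34 that were measured and tested. Of these 34, 27 had a lower and 7 a higher mean in Yaa, with a median of -0.25, and 0 passed limma's adjusted test. One, Bcl11a, a lineage factor, was lower at an unadjusted p under 0.05 (-0.45 ± 0.14, SE; adjusted p = 0.880), and it was not lowest in Yaa 3. Its values were 8.95, 8.68, 8.45 and 8.70 in wild type and 8.26, 8.10, 8.28 and 8.34 in Yaa, so all Yaa samples lay below all wild-type samples. Over all tested probe sets 1.76% were lower at that unadjusted p and 4.10% did not overlap, so 1 gene of 34 is near the background. The IgM receptor Fcmr, the complement receptor Cr2 and the IgE receptor Fcer2a read 4.24, 4.30 and 4.28 in Yaa 3, at the floor, and 9.70 or more in the other 7 samples. Fcgr2b, the inhibitory IgG receptor that phagocytes share, read 8.51 in Yaa 3 and 9.55 to 10.42 elsewhere. Cd40, the receptor for T cell help, read 5.97 in Yaa 3 and 7.61 to 8.39 elsewhere. Without Yaa 3, 8 of the 34 were lower in Yaa, with a median of 0.12, where 50.4% of all tested probe sets were lower. Without Yaa 2 as well, 22 of 34 were lower, with a median of -0.12, where 51.5% were, so the count rests on Yaa 2.

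**Figure D4:**
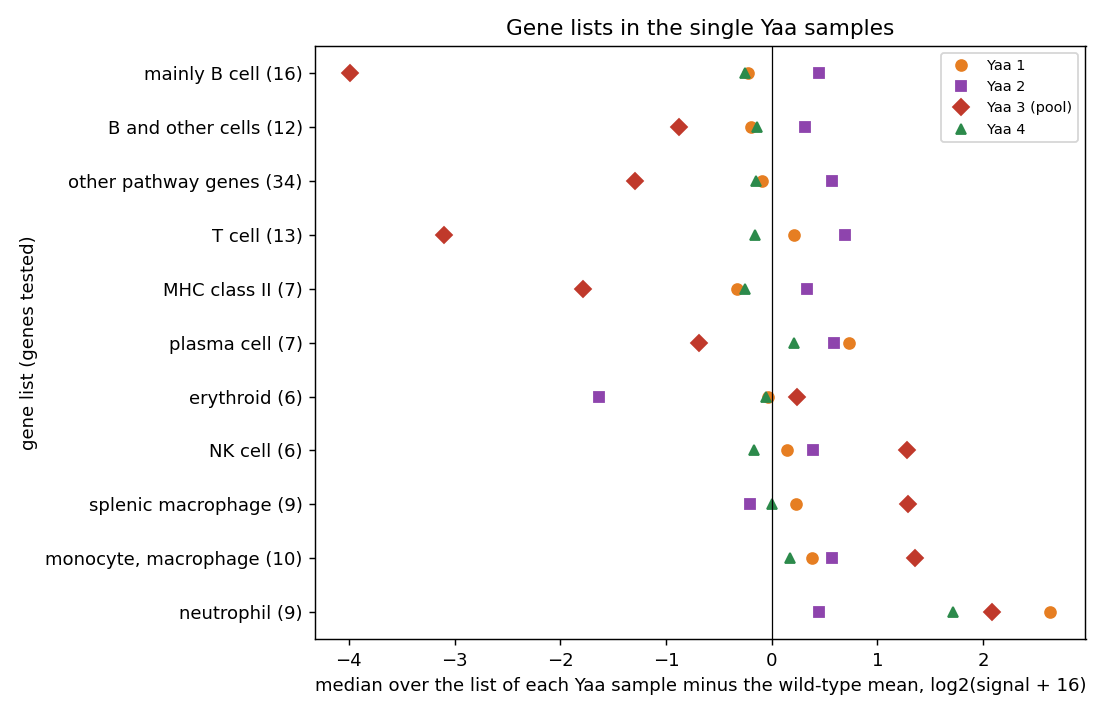
Median over each gene list (rows, with the number of genes tested) of each Yaa sample minus the wild-type mean, in log2(signal + 16), with 1 symbol per Yaa sample. Yaa 3 is far left for mainly B cell genes (-3.99) and T cell genes (-3.10) and right for NK, macrophage, monocyte and neutrophil genes, while Yaa 2 is left for erythroid genes (-1.64). For neutrophil genes Yaa 1 (2.64) lies further right than Yaa 3 (2.08), with Yaa 4 at 1.71 and Yaa 2 at 0.44.

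Markers of other spleen cells also set Yaa 3 apart. All 13 tested T cell genes were lowest in Yaa 3, their summed signal at 536, against 3938 to 6267 in wild type and 4984 to 8946 in the other Yaa samples; Cd3e read 4.50 and Bcl11b 4.11 there, near the floor. MHC class II genes, which B cells share with dendritic cells and macrophages, were lowest in Yaa 3 in 7 of 7, with sums of 7350 against 23276 to 32070 in wild type and 23933 to 39395 in the other Yaa samples. The reverse held for other lineages. Splenic macrophage genes (9 of 9 tested) summed to 15402 in Yaa 3 against 6003 to 6418 in wild type and 5371 to 6763 in the other Yaa samples, and 9 of 9 were highest in Yaa 3. Those of NK cells (6 tested) summed to 4659 against 1132 to 1639 and 1299 to 1827, with 6 of 6 highest in Yaa 3. Monocyte genes (10 tested) summed to 21205 against 8488 to 10164 and 10506 to 16998, with 9 of 10 highest in Yaa 3. Neutrophil genes (9 tested) summed to 35993 in Yaa 3, 8413 to 13992 in wild type and 12741 to 54567 in the other Yaa samples, with 1 of 9 highest in Yaa 3. Plasma cell genes (7 tested) summed to 1388 in Yaa 3, 5395 to 8077 in wild type and 9850 to 12246 in the other Yaa samples, but only 4 of 7 were lowest in Yaa 3. The part of these shifts in the members' values was not tested, and pooling of 2 spleens cannot be told apart from whatever else set this sample apart.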

How the data were processed

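RNA of 8 spleen preparations was measured on Affymetrix arrays, 1 per sample. The deposited values are linear intensity, 1 value per probe set, made by the authors with MAS5 per the submitters' processing notes. Version and scaling target: not given in the sources used here. Signals of all 45101 probe sets were quantile-normalized and 16 was added before log2. The 64 controls were then left out. Probe sets with a mean above the median of 5.38 (22518) were tested with limma 3.58.1 in R 4.3.3 (lmFit, eBayes with trend), Yaa against wild type, with Benjamini-Hochberg adjustment over all of them. Gene names came from GEO's annotation of the platform, and old symbols were replaced by way of Entrez identifiers. All 28 measured members passed the filter. A gene's probe set is the one with the highest mean. The fit was tested on simulated data. Other scalings, constants, filters and samples left out were tried. All measured members are named, and of other pathway genes those with the smallest p plus Cr2, Cd40 and Fcgr2b were eligible. The members and lists were chosen with earlier results of these data known. P-values set the difference between group means against the spread between these samples, and the number of arrays limits the precision. Same-numbered samples were not paired by the labels or by the values.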

Additional observations from a re-analysis of the deposited data

Results flagged for a closer look

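In groups of 4, the gap between the lowest or highest sample and its neighbour, divided by the group's range, was compared with Dixon's 95% critical value. The groups were read on the same arrays, so they are not independent, and the share over all probe sets was not computed. Of 56 groups, 14 passed. In 11 of them the pooled sample Yaa 3 was low: Pax5 (a ratio of 0.955), Pou2af1 (0.915), Ms4a1 (0.902), Ebf1 (0.883), Cd79b (0.876), Cd79a (0.860), Vpreb3 (0.854), Cd72 (0.847), Cd22 (0.844), Blk (0.844) and Spib (0.834). In the other 3, wild type 1 was low, for Pik3ap1 (0.865), Bank1 (0.831) and Ralgps2 (0.831).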

How the results depend on the processing

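No member passed the adjusted limma test in any setting. The number at an unadjusted p under 0.05, in either direction, was 1. It became 2 with 64 added to the signal, and 2 with the least variable probe set per gene. It was 3 over all 47 probe sets, 6 with array weights, 10 without Yaa 2 and Yaa 3, and 1 to 5 when single samples were left out. Over all tested probe sets, 1.76% were lower and 2.97% higher in the main fit, and 6.93% were either without Yaa 3. With array weights 6.05% were lower, while 4.94% were without Yaa 2 and Yaa 3. Other shares over all probe sets were not computed, so there a rise in the members cannot be told from a rise over the array. Over all probe sets, 41 of 47 were lowest in Yaa 3. With the replicate block the median log2 fold change was -0.73, and 1 member was under 0.05 unadjusted; the shared numbers do not pair the samples, with correlations of same-numbered deviations from -0.367 to 0.0157. The median over members was -1.16 without Yaa 2 and -0.05 without Yaa 3. With signals as deposited the median of all tested probe sets moved by -0.19. Leaving out single samples gave -2.72 to 0.10 for Ms4a1, -1.91 to 0.22 for Ebf1, -1.06 to 0.12 for Blnk, -0.51 to 0.15 for Syk, -1.07 to 0.011 for Bank1, -1.32 to 0.011 for Spib, -2.30 to 0.20 for Pou2af1, -1.25 to 0.12 for Cd72, -0.13 to 0.072 for Cd24a, -0.041 to 0.08 for Cd81, -0.42 to 0.15 for Plcg2 and -0.92 to 0.006 for Swap70. With scaling and filter redone without Yaa 3, the values were 0.10 for Ms4a1, 0.22 for Ebf1, 0.11 for Blnk, 0.15 for Syk, 0.014 for Bank1, 0.011 for Spib, 0.20 for Pou2af1, 0.12 for Cd72, -0.041 for Cd81, 0.15 for Plcg2 and 0.006 for Swap70. Without Yaa 2 and Yaa 3 they were 0.022 for Ebf1, 0.003 for Pou2af1, 0.043 for Cd24a and -0.012 for Cd81. Median-centred arrays gave 0.049 for Cd24a and -0.060 for Cd81, array weights 0.027 and -0.056, and signals as deposited -0.15 for Cd81. Beyond the samples left out, the cause was not tested.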
